A study of Caenorhabditis elegans with 2 samples.

Results

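The genes described are 2 CDC-48 genes and 31 proteasome subunit genes, 33 of the 19985 annotated protein-coding genes of Caenorhabditis elegans. They are cdc-48.1 and cdc-48.2, pas-1 to pas-7, pbs-1 to pbs-7, rpt-1 to rpt-6 and 11 rpn genes. They were chosen by name after the signal and rank of the regions at their promoters were known, so those values are given as description, with no test. The data are chromatin immunoprecipitation followed by sequencing (ChIP-seq) of NHR-84, a nuclear hormone receptor, in whole first-stage (L1) larvae of mixed sex. All animals were of strain OP357, which carries the mutation unc-119(tm4063) III and the integrated transgene wgIs357, from which NHR-84 with GFP and FLAG at its C terminus was expressed. There was 1 group with 2 biological replicates of that 1 strain, so no condition could be compared. The control library was not analysed here. The sources used here give neither the age of the larvae in hours nor the promoter and copy number of the transgene.

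The proteasome degrades proteins tagged with ubiquitin. Its 20S core is a barrel with outer rings of alpha subunits (pas genes) and inner rings of beta subunits (pbs genes), and the beta rings hold the proteolytic sites. The 19S particle caps the core. Its ATPases (rpt genes) unfold substrates and its non-ATPase subunits (rpn genes) bind ubiquitin, remove it or hold the particle together. CDC-48, called p97 or VCP in mammals, is a ring-shaped ATPase that pulls ubiquitinated proteins out of membranes and complexes and often acts upstream of the proteasome. Worms have a pair of closely related genes for it.

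Each value is the highest signal the caller gave to a region whose summit lay in the promoter window, at most 500 bp ahead of a transcription start site (TSS) or 100 bp past it, and the rank of that region in its list. The lists of replicate 1, of replicate 2 and of both replicates pooled hold 30000 regions each on build ce11. Low-ranked entries are part of these lists by design, as they were the input to the reproducibility step. The signal scale of each list is its own, so signals were compared within a list only. The lists give no read counts, and the depth is unknown. That step, the irreproducible discovery rate (IDR), compares how regions rank in the replicates. Its list holds 106 peaks, which are the 106 highest regions of the pooled list. An IDR peak here thus means a pooled rank of 106 or better, and is no separate sign that the replicates agree on a region.

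The sequence under the cdc-48.1 region is shown because it is the strongest region of all the genes described, and the stretch of cdc-48.2 at the same distance from its start is shown for contrast. Sequences are from the RefSeq copy of the ce11 assembly. Both stretches are on the gene's own strand, 5′ to 3′, and lie in no annotated exon. They are chrII:10563467-10563667 (minus strand), 100 bp to either side of the cdc-48.1 summit, and chrII:8138236-8138436 (plus strand). Capitals mark matches on either strand to the words named further on.
cdc-48.1: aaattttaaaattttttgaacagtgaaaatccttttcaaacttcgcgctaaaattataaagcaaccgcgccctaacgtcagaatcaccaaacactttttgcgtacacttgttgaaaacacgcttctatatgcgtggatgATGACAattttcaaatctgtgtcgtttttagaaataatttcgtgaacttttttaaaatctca
cdc-48.2: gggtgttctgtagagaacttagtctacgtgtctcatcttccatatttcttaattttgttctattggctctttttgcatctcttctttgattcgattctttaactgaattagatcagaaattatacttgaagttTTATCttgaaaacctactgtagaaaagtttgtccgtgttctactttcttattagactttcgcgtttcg
The stretches were not alike beyond short words: the longest run of bases they shared was 8 on the same strand and 8 on opposite strands.

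The regions that follow in strength were those of rpt-2 and rpn-3. Sequence 50 bp to either side of their summits is shown on the gene's strand, from chrV:6017977-6018077 (minus strand) for rpt-2 and chrIII:8447121-8447221 (plus strand) for rpn-3. Neither holds a match to the words searched, so no base is in capitals. The rpt-2 stretch lies in the first exon and intron of aps-1, its neighbour on the other strand.
rpt-2: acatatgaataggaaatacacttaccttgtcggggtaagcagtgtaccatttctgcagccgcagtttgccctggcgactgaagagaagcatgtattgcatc
rpn-3: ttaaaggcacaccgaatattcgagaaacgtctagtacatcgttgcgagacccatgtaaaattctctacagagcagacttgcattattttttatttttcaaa

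cdc-48.1 (WBGene00007352, II, 10560036 to 10563407, minus strand) had one of the strongest regions of the genome, and in both replicates. In the pooled list its region (II, 10563415 to 10563718) had a signal of 139.9 and rank 3. In replicate 1 the signal was 71.6 at rank 3, and in replicate 2 it was 67.8 at rank 4. The summits lay 160 bp upstream of the TSS in the pooled list and in replicate 1, and 171 bp upstream in replicate 2. The replicates thus placed the region within 11 bp of each other and within 1 rank. Its signal was 6.87 times the median of all regions in the pooled list, 6.14 times in replicate 1 and 5.87 times in replicate 2. The caller's q-values were 0.0182 in the pooled list, 0.0303 in replicate 1 and 0.0233 in replicate 2.

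Among coding genes ordered by their strongest pooled promoter region, cdc-48.1 was number 2, between rpl-3 (signal 175) and rpl-35 (112), both genes of the large ribosomal subunit. No other gene, coding or noncoding, had the region in its window. The next coding gene upstream, C06A1.6, is on the same strand, and its 3' end lies 705 bp away. None of the 269 words of 36 bases in the region occurred elsewhere in the genome on either strand, so reads of that length would have a single place there. Of the 33 genes, cdc-48.1 alone had an IDR peak at its promoter, against 72 of all coding genes (0.36%). It was also the only one with a region of rank 1000 or better in both replicates, against 0.475% of coding genes.

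cdc-48.2 (WBGene00008053, II, 8138496 to 8141230, plus strand), which encodes the other CDC-48 protein, had no promoter region in the pooled list or in replicate 2. Replicate 1 had a region 64 bp downstream of the TSS, at rank 13265 and a signal of 12.1. In that list the signal of cdc-48.1 was 5.93 times as high. In the pooled list the signal of cdc-48.1 was 8.63 times the lowest one listed, 16.2, and in replicate 2 it was 7.56 times the lowest, 8.96. The pooled region nearest to the cdc-48.2 start lay inside the gene, 884 bp downstream, at rank 29487. Within 8000 bp of the start there were 8 pooled regions, and the strongest of them (signal 43.9, rank 244) lay 6624 bp upstream. Around cdc-48.1 there were 6 pooled regions, and the strongest after the promoter region had a signal of 30.6 at rank 2020, lying 6770 bp downstream of the start. The genes thus stood apart at the promoter. In the pooled list the regions around cdc-48.1 were weaker than that at its promoter, while cdc-48.2 had regions around it but none at its promoter. Neither was tested.

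**Figure D1:**
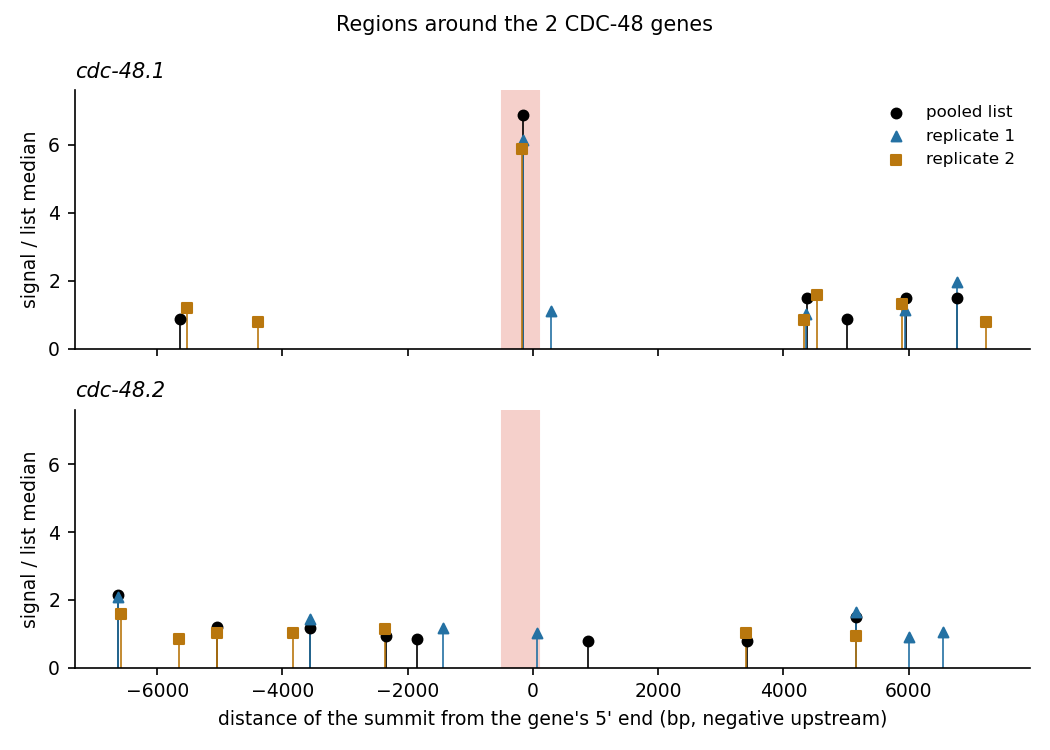
Regions within 8000 bp of the 5' ends of cdc-48.1 (top) and cdc-48.2 (bottom), as signal divided by the median of the same list (vertical axis) against summit distance in bp (horizontal axis); circles are the pooled list, triangles replicate 1, squares replicate 2, and the shaded band is the promoter window. The cdc-48.1 promoter stands at 6.87, 6.14 and 5.87 in the 3 lists, while cdc-48.2 has only the replicate 1 region in its window.

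The proteasome genes were far below cdc-48.1. The strongest of them in the pooled list, rpt-2, had a signal of 50.7, and that of cdc-48.1 was 2.76 times as high. In replicate 1 cdc-48.1 was 1.89 times as high as the strongest proteasome gene, rpt-2, and in replicate 2 it was 2.42 times as high as the strongest there, rpn-3. Of the 31 proteasome genes, 9 had a pooled region at the promoter, with a median signal of 28.8 and a median rank of 2901. Over the 5005 coding genes with a pooled region the medians were 21.5 and 12206. The single replicates did not show this: the median rank was 14178 over the 15 proteasome genes with a region in replicate 1 and 15463.5 over the 12 in replicate 2, near the middle of each list. No proteasome gene had an IDR peak on ce11. The caller's pooled q-values of the 9 regions were 0.485 (rpt-2) or higher, against 0.0182 for cdc-48.1.

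With cdc-48.1 included, 10 of the 33 genes had a pooled region (30.3%), against 25% of all coding genes. Replicate 1 had a region at 17 (51.5%, against 25.6% of coding genes) and replicate 2 at 13 (39.4%, against 24.7%). Both replicates had one at 8 (24.2%, against 11.2%). The best regions of the replicates had summits within 100 bp of each other at 5 genes, cdc-48.1, rpt-2, rpn-3, pas-5 and pbs-3, against 5.34% of coding genes. A pooled region of rank 1000 or better was found at 3 genes, cdc-48.1, rpt-2 and rpn-3, against 2.01%. The pooled share in this window was near that of all coding genes and is no result about these genes. In the wider windows and with interval overlap, given further on, it lay further above that of coding genes. None of the shares was tested, since the genes were chosen with these values known.

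**Figure D2:**
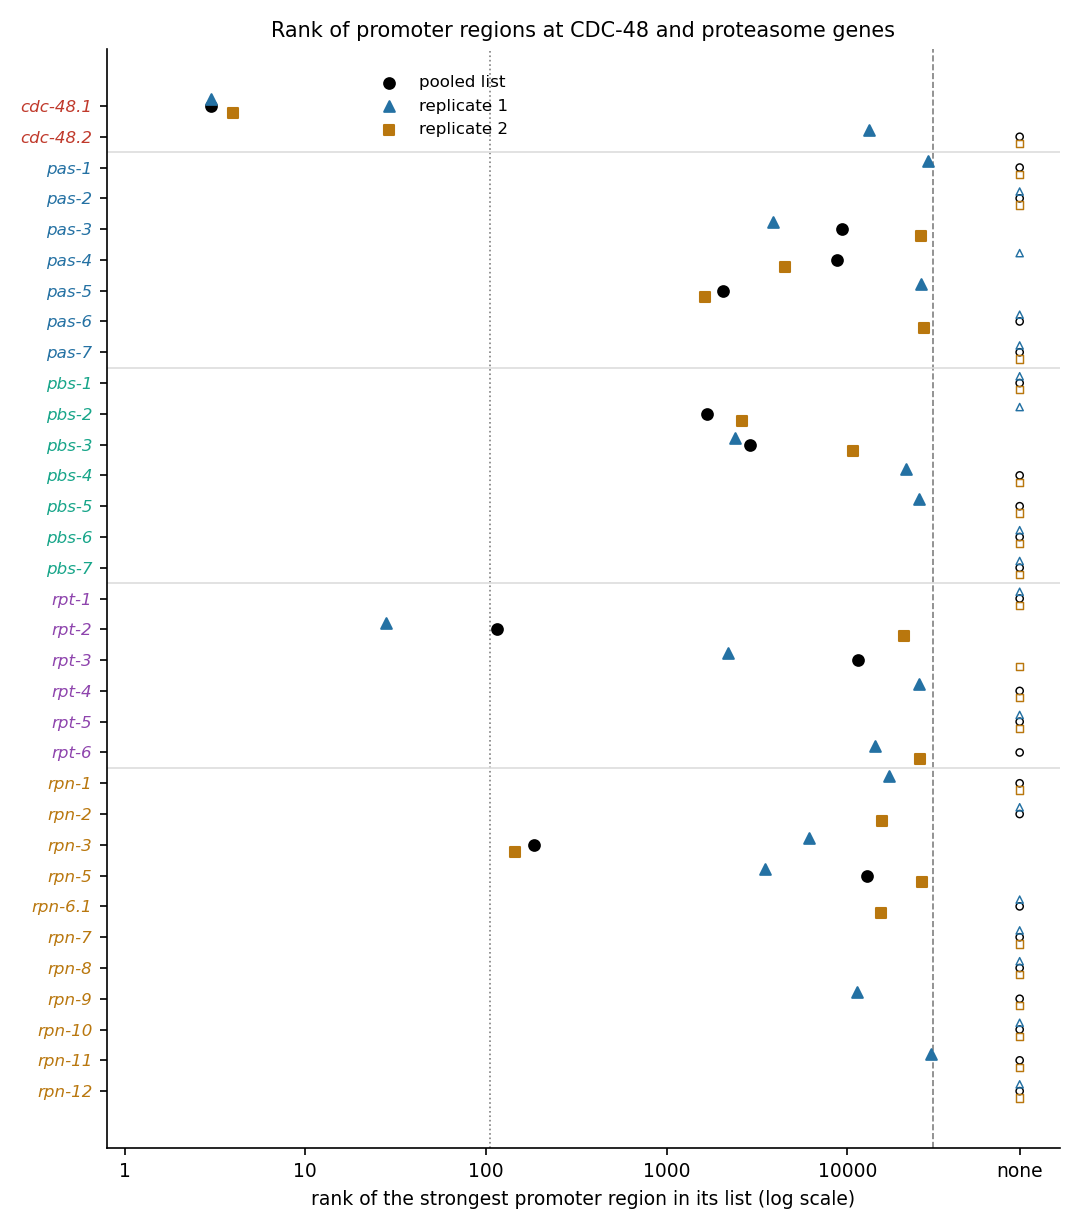
Rank of the strongest promoter region of each of the 33 genes (horizontal axis, log scale) in the pooled list (circles), replicate 1 (triangles) and replicate 2 (squares); open symbols under "none" mark lists with no region, the dotted line is the last IDR peak (rank 106) and the dashed line the end of the lists (rank 30000). The dotted line applies to the pooled list (circles) only. cdc-48.1 is at ranks 3, 3 and 4, while rpt-2 and rpn-3 are ranked far apart by the replicates.

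Among the 19S ATPase genes, 2 of 6 had a pooled region. The rpt-2 region (WBGene00004502, V, 6017875 to 6018178) had rank 115 in the pooled list, just below the last IDR peak at 106, whose signal was 52.0. Its signal was 38.0 in replicate 1, at rank 28, and 10.4 in replicate 2, at rank 20543. The replicates therefore agreed on the place, with summits 31 bp apart, but not on the strength, and the replicate 2 signal was under that list's median of 11.5. The pooled q-value was 0.485. The summit lay 358 bp upstream of the rpt-2 start but within the first coding exon of aps-1, 57 bp past the start of that gene, which encodes a small subunit of a clathrin adaptor complex. The noncoding gene F29G9.10 also had it in its window. Which of these 3 genes the region belongs to cannot be told apart from the lists. The second gene, rpt-3, had a pooled region 57 bp into the gene, in coding sequence, with a signal of 21.8 at rank 11539. The pooled q-value there was 0.82. In replicate 1 it had a signal of 17.8 at rank 2181, and it was absent from replicate 2.

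The longer ce10 list of 117 IDR peaks reached down to a signal of 50.6. It held a peak on the same chromosome with the same signal as rpt-2, 50.7 at rank 115. On that build 2 of the 33 genes, cdc-48.1 and rpt-2, thus matched an IDR peak.

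Among the 11 genes of 19S non-ATPase subunits, 2 had a pooled region. The rpn-3 region (WBGene00004460, III, 8447019 to 8447322) had a signal of 46.0 at rank 185, with a q-value of 0.631. It ranked 6162 in replicate 1, with a signal of 14.6, and 145 in replicate 2, with a signal of 28.0. This was the reverse of rpt-2, whose stronger replicate was replicate 1. The summit lay 182 bp upstream of rpn-3, which encodes a subunit of the lid, and 262 bp upstream of hsp-110, a chaperone gene transcribed the other way. The noncoding gene C30C11.14 also had it in its window. The other, rpn-5, had the lowest signal of the 10 pooled regions, 21.2 at rank 12917, with a q-value of 0.813. The signal was 16.3 at rank 3500 in replicate 1 and 9.53 at rank 25975 in replicate 2, with summits 302 bp apart. rpn-5, a lid subunit gene, has 2 annotated starts. The pooled summit was 65 bp upstream of the inner one and inside the gene as counted from the outer one, and it lay 362 bp upstream of scc-1, a cohesin gene on the opposite strand.

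A pair of rpn genes had regions just past the window. At rpn-8 the pooled region (signal 41.3, rank 346) had its summit 101 bp downstream of the start, 1 bp outside the limit. The nearest summit of replicate 1 was 11 bp away and ranked 18571. That of replicate 2 was 114 bp away and ranked 177, and it may not be the same region. At rpn-10, which encodes a ubiquitin receptor, the summit was 121 bp downstream and the rank 3150. The nearest summit there was 12 bp away at rank 9151 in replicate 1 and 0 bp away at rank 15019 in replicate 2. On the other side of the limit, the nearest pooled summit was that of pas-4, 74 bp downstream. Within the gene body of rpn-1, a scaffold subunit, 987 bp downstream of the start, there was a further region with a signal of 41.6 at rank 330, which ranked 127 in replicate 2 and 15948 in replicate 1. Within rpt-4, an ATPase gene, 1249 bp upstream of its inner start, a region with a signal of 34.8 at rank 895 did not have that order, with rank 2680 in replicate 1 and 6478 in replicate 2.

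**Figure D3:**
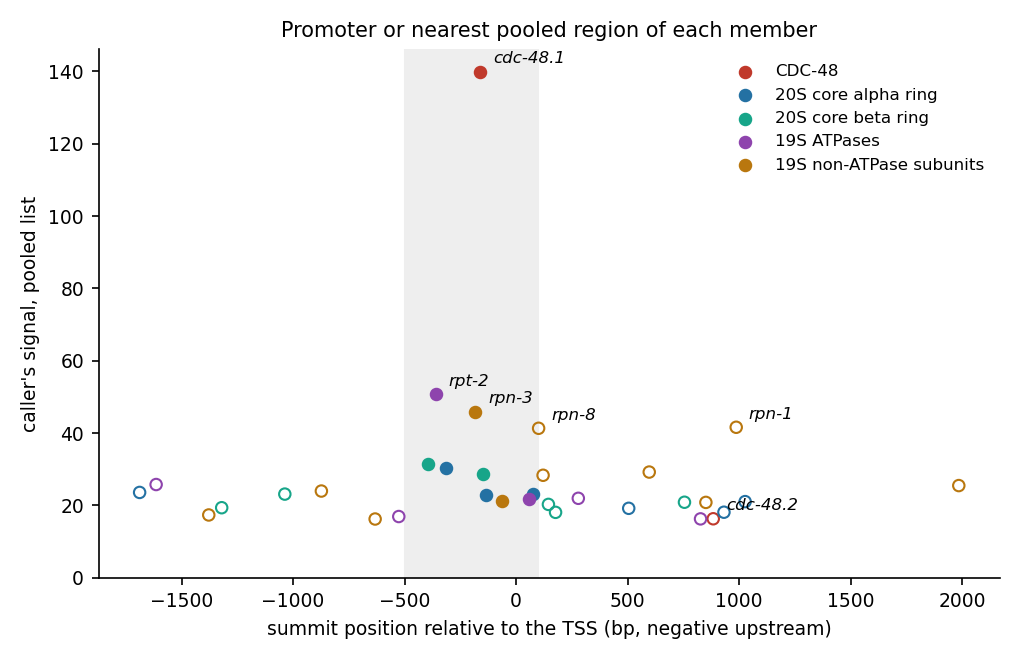
Signal in the pooled list (vertical axis) against summit position in bp from the TSS (horizontal axis) for each of the 33 genes, with the promoter window shaded. Filled points are the strongest region in the window (10 genes) and open points the nearest pooled region of the other 23; rpn-8 lies 101 bp downstream, at the edge of the window.

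In the 20S core, 5 of 14 genes had a pooled region, 3 of 7 pas genes and 2 of 7 pbs genes. None of these 5 ranked within the first 1000, and their pooled q-values ran from 0.824 (pas-3) to 0.893 (pbs-2). pbs-2 was the strongest (signal 31.5, rank 1667), and its region was also in replicate 2 (signal 17.1, rank 2607) but not in replicate 1. It lay 394 bp upstream of pbs-2 and 272 bp upstream of eif-6, a translation initiation factor gene on the opposite strand. pas-5 followed with a signal of 30.5 at rank 2060. Its replicates put the summit within 2 bp of each other, 315 bp upstream in replicate 1. They ranked it far apart, with a signal of 9.72 at rank 25473 in replicate 1 and 18.5 at rank 1626 in replicate 2. pbs-3 had a signal of 28.8 at rank 2901. In replicate 1 the signal was 17.5 at rank 2405, and in replicate 2 it was 12.7 at rank 10804, with summits 37 bp apart. The pooled summit, 150 bp upstream, lay in the 3' UTR of the gene ahead of it, ulp-2. pas-4 (signal 23.2, rank 8808) and pas-3 (22.9, rank 9335) ranked lower, and each region was also in the window of a gene on the opposite strand, rpb-3 for pas-4 and use-1 for pas-3. The pas-4 region was in replicate 2 (signal 15.4, rank 4498) but not in replicate 1. The pas-3 region had a signal of 15.99 at rank 3888 in replicate 1 and 9.57 at rank 25687 in replicate 2, where the summits were 120 bp apart. Of the 5 core genes, pas-5 and pbs-3 alone had replicate summits within 100 bp.

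**Figure D4:**
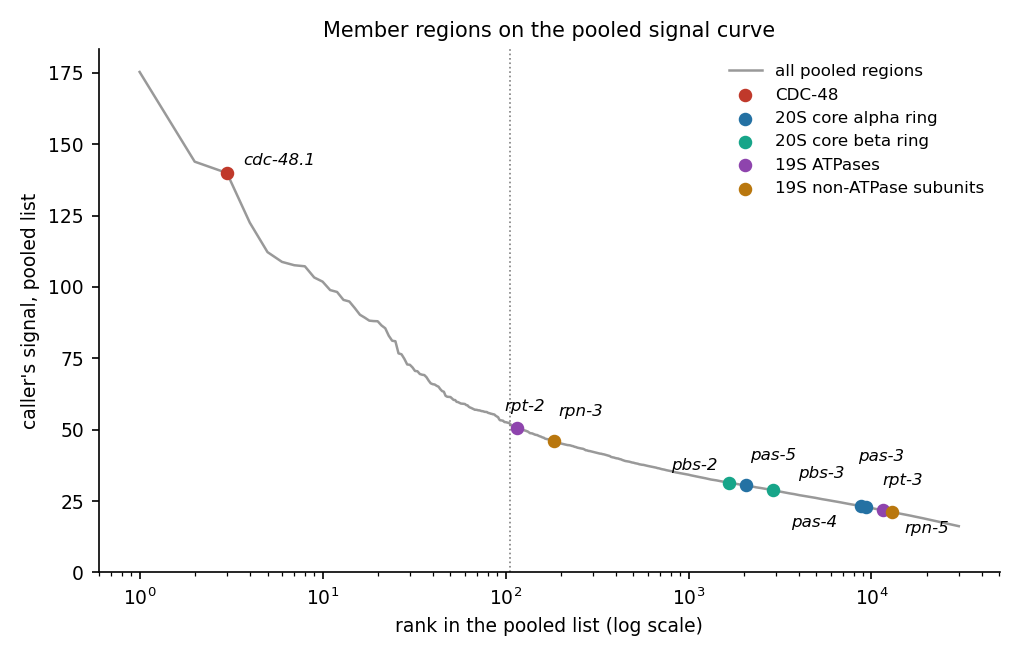
Signal of the pooled regions (vertical axis) against their rank (horizontal axis, log scale), with the 10 genes that had a promoter region marked by complex; the dotted line is the last IDR peak at rank 106. cdc-48.1 sits at rank 3, rpt-2 and rpn-3 at ranks 115 and 185, and the other 7 between ranks 1667 and 12917.

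The remaining 23 genes had no pooled promoter region. Of these, 12 had a region in 1 or both replicates that did not reach the pooled list, cdc-48.2, pas-1, pas-6, pbs-4, pbs-5, rpt-4, rpt-6, rpn-1, rpn-2, rpn-6.1, rpn-9 and rpn-11. Their best ranks ran from 11263 (rpn-9, replicate 1, signal 12.6) to 29111 (rpn-11, replicate 1, signal 9.19). rpn-11 encodes the subunit that removes ubiquitin from substrates. A further 11 genes had none in any list, pas-2, pas-7, pbs-1, pbs-6, pbs-7, rpt-1, rpt-5, rpn-7, rpn-8, rpn-10 and rpn-12. Absence from a list gives no level.

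Many of the regions were shared with a neighbour. Of the 10 pooled regions, 6 also lay in another coding gene's promoter window, while over all coding genes with a pooled region the share was 15.3%. The 4 that did not were cdc-48.1, pas-5, pbs-3 and rpt-3. Of the 33 genes, 20 (60.6%) had their nearest upstream coding gene within 1000 bp on the opposite strand, against 17.5% of all coding genes; its part in the shared windows was not tested. A pooled region was found at 6 of these 20, against 29.4% of coding genes so placed. Of the 8 with an upstream neighbour on the same strand within 1000 bp, 3 had a region, against 23.9%. Of the 5 with no such neighbour, 1 did, against 24.2%. Annotated 5' ends of worm genes are often trans-splice sites, and genes on the same strand can be transcribed together from a start further upstream, so windows of this kind can miss the true start.

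The window decided how many of the 33 genes had a pooled region. From 200 bp upstream to 50 bp downstream it was 5, against 12.5% of coding genes. From 1000 bp upstream to 200 bp downstream it was 21 of the 33, against 40.5% of coding genes. From 2000 bp upstream to 500 bp downstream it was 28 of the 33, against 60.4% of coding genes. With any overlap of the region in place of its summit it was 17 of the 33, against 33.8% of coding genes.

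Short words were searched on both strands within 100 bp of the summits. They were AGGTCA, a core site of many nuclear receptors, the repeat GAGAGA, the word GATAA of GATA factors, and the words TGTCAT and also TATCAT, cores of sites bound by the proteasome regulator SKN-1. The words CGCGCA, then GAGCGC, and finally CCTGCG were added because earlier results of these data had them often at strong regions. Matches to different words may overlap. The cdc-48.1 sequence held 1 match, to TGTCAT on the opposite strand, a word found in 10.3% of all pooled regions and 10.4% of IDR peaks. The cdc-48.2 stretch held 1 match, to GATAA on the opposite strand. AGGTCA was at none of the 10 regions, against 5.21% of pooled regions. GAGAGA was at 3 (pas-3, pas-5 and rpt-3, against 12.2%), GATAA at 2 (pas-3 and pbs-3, against 38.3%) and TATCAT at 2 (pas-4 and rpt-3, against 12.4%). CGCGCA was at 2 (pas-3 and pas-5, against 3.06%), GAGCGC at 1 (pas-3, against 2.94%) and CCTGCG at 1 (rpt-3, against 2.16%). Among IDR peaks the shares were 20.8% for CGCGCA, 17.9% for GAGCGC and 13.2% for CCTGCG. They were 7.55% for AGGTCA, 28.3% for GAGAGA, 40.6% for GATAA and 5.66% for TATCAT. GC content within 50 bp of the cdc-48.1 summit was 39.6%, near the median of 36.6% over pooled regions. The number of CG pairs, counted after the sequences had been seen, was 10 within 100 bp of the cdc-48.1 summit. It was 6 in the cdc-48.2 stretch of the same length, with medians of 6 over pooled regions and 10 over IDR peaks. The count at cdc-48.1 was not particular to it: over the 10 genes with a pooled region the median was 9.5, from 4 at pas-4 to 13 at pas-5. The much weaker region of rpt-3 also had 10.

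Other genes of the pathway had no promoter region as strong as that of cdc-48.1. The list of CDC-48 cofactors has 12 genes and counts in cdc-48.3, which shares the CDC-48 name and had no pooled promoter region. Of the 12, 4 had a pooled region, led by ufd-3, which encodes a partner of CDC-48. Its signal was 42.8 at rank 279, with rank 225 in replicate 1 and 1557 in replicate 2, and the replicate summits were 14 bp apart. The pooled q-value of that region was 0.67. ubxn-3 and ubxn-6 followed at ranks 10224 and 20339. Of 6 genes for ubiquitin, ubiquitin-like proteins and their activating enzymes, 3 had a region. The strongest, ubq-2, encodes ubiquitin joined to a ribosomal protein, and had a signal of 38.4 at rank 505, with ranks 2784 and 961 in the replicates and the same summit in both. It lay 487 bp upstream of ubq-2 and 152 bp upstream of frg-1, and its pooled q-value was 0.794. ubq-1 (rank 6553) and rfl-1 (rank 18892) had weaker ones.

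Of 11 other proteasome subunit and associated genes, 3 had a pooled region. rpn-13, which encodes a ubiquitin receptor, had a signal of 30.3 at rank 2124, with rank 197 in replicate 1 and no region in replicate 2, and rpn-6.2 and ubh-4 stood at ranks 16763 and 23779. Of 7 genes of degradation from the endoplasmic reticulum, 2 had one, sel-1 (rank 15988) and marc-6 (rank 22839). Of 4 genes for regulators of proteasome or stress genes, 2 had one, skn-1 (signal 26.5, rank 4535) and daf-16 (rank 10199). No gene of these 5 lists had an IDR peak in its promoter window. Within the skn-1 gene, outside the window, there was an IDR peak, with a signal of 61.4 at rank 50. Over the 40 genes, 14 had a pooled region (35%, against 30.3% of the 33 genes and 25% of all coding genes), with a median signal of 21.2, near the 21.5 of all coding genes with a region.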

How the data were processed

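Per the deposited file records, the authors made lists of regions on ce11 from the alignment of each replicate and from both replicates pooled, with a control alignment as a parent, and 1 list that passed the IDR step. For the aligner, the peak caller with its settings, and the threshold of the IDR step: not given in the sources used here. Signal, per region, was used as the authors deposited it, and its scale is not stated. The deposited −log10 q-value was turned into a q-value. Read counts were not used here, so the depth per sample is unknown.

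Regions were placed on the Ensembl 115 gene set, whose assembly is that of ce11, with 0 regions past a chromosome's end. Any annotated transcript start was a TSS. Sequence is RefSeq's copy of that assembly. The pooled value was the main one, and each replicate's value is given beside it. Regions on ce10 were matched by chromosome and a signal within 0.1%, with no coordinates converted. No test was run. The window assignment was checked on simulated data.

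The members, gene lists and words were chosen with earlier results of these data known. Genes were named by a rule: both CDC-48 genes, the 8 members of highest pooled signal, the lowest 3, members with an IDR peak, up to 3 per other list, genes that share a named window, and the coding genes next to cdc-48.1 in the ranking. rpn-8, rpn-10, cdc-48.3 and the gene body regions of rpn-1, rpt-4 and skn-1 were added after their values were seen. Alternatives were other windows, 1 start per gene, interval overlap, each replicate alone, the ce10 list and the upper part of the IDR list. Python 3.11.15, numpy 2.4.6, pandas 2.3.3 and matplotlib 3.10.9 were used.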

Additional observations from a re-analysis of the deposited data

How the results depend on the processing

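The count of 10 genes with a pooled region became 5 in the narrow window, 21 and 28 in the wider ones and 17 with interval overlap, and 13 to 17 with 1 replicate left out. The count of 1 gene with an IDR peak was 2 on the ce10 list and 1 to 2 with 1 replicate left out, where the 106 highest regions of the other replicate stood in for the IDR peaks and rpt-2 was added without replicate 2. It was 1 in every other window, with interval overlap and in the upper part of the IDR list. None of these could remove cdc-48.1, whose summit 160 bp upstream lies in every window and whose pooled rank is 3. Only added genes could have changed the count there. The rank of cdc-48.1 was 3 under each alternative but the lists of single replicates, which gave 3 to 4. Other windows could not have worsened that rank, since each holds the same summit. The proteasome genes with a region had a signal above a median of 90.3% of the pooled list. That was 79.6% in the narrow window, 69.8% from 1000 bp upstream and with interval overlap, 71.8% from 2000 bp upstream, and 48.5% to 52.7% with 1 replicate left out; the cause was not tested. cdc-48.2 had no pooled region in the main window, so no ratio to it could be had there. It was at rank 26562 in the widest window, where cdc-48.1 was 8.23 times as high, and at rank 13265 without replicate 2, with a ratio of 5.93. Using the gene record's 5' end only changed none of these values. No paired analysis was possible because the study has 1 group. The effect of depth was not tested, since it is unknown.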
